A study of Mus musculus with 3 samples.

Results

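The BCL2 family decides whether a cell opens the outer membrane of its mitochondria and dies by apoptosis. BH3-only proteins are the sensors of the family: they are made or activated under stress and bind the anti-apoptotic members. The anti-apoptotic members hold the pore-forming proteins Bax and Bak in check, and once these are free they form pores through which cytochrome c leaves to start the caspases. In these data 10 genes of the family were followed: the BH3-only genes Pmaip1, Bbc3, Bcl2l11, Bid and Bad, the pore-forming Bax and Bak1, and the anti-apoptotic Bcl2, Bcl2l1 and Mcl1. The genes were picked by name from the family, Pmaip1 because its high level in one of these libraries was already known, and they are 10 of 29787 genes measured. All 10 passed the filter on low levels (1 CPM or more in at least 1 library), as did 16604 genes in all.

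RNA of brain vessels was sequenced in 3 libraries from mice aged 3 months, 1 library for each group. The first group is hGFAP-Cre/Cx43fl/fl, called Cx43 -/- in the labels, on a mixed C57BL6-BALB/c background: floxed connexin 43 (Gja1) is removed by a Cre recombinase under a human GFAP promoter, which is active in astrocytes and also in radial glia, the precursors of many neurons. The other groups are WT mice of the mixed C57BL6-BALB/c background and WT C57BL6 mice, for which no Cre or floxed allele is listed. The number of animals behind a library is not stated in the labels.

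The Cx43-deleted library held 54975610 reads in total, and the WT libraries held 21170766 (C57BL6-BALB/c) and 24830975 (C57BL6). Gja1 was at 48.0 CPM in the Cx43-deleted library, against 202 CPM in each WT library. All 8 endothelial markers were present in every library, with a summed level of 6455 CPM in Cx43-deleted, 6005 CPM in WT C57BL6-BALB/c and 9424 CPM in WT C57BL6. Of these 8, 1 lay above both WT libraries (33.2% of all genes) and 6 lay below both (35.6%). Their median log2 ratio was −0.23 over WT C57BL6-BALB/c and −1.01 over WT C57BL6. Against WT C57BL6, 4 of the 8 were 2-fold or more lower (2.91% of all genes). Oligodendrocyte markers summed to 13272 CPM in Cx43-deleted, 13740 CPM in WT C57BL6-BALB/c and 17137 CPM in WT C57BL6, so RNA of other brain cells was present. With 1 library per group there was no test. Differences are between libraries, the 95% intervals cover counting error only, and a level that differs can reflect fewer cells of a type or less RNA per cell, which cannot be told apart here. CPM is the count summed over the transcripts of a gene, relative to the scaled library total. A read is counted on each transcript it overlaps, so CPM grows with the number of listed transcripts. It is not used to rank genes against each other. Reads, folds and levels per length are those of the most abundant transcript.

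Bcl2l1, Mcl1 and Bax had the highest levels per length of the 10 genes in each of the 3 libraries, so the DNA upstream of their start sites is shown. Each line gives the 250 bases before a start site in RefSeq (GRCm38.p6), with the GC box GGGCGG and the E-box CACGTG in capitals where either was found on either strand. Each motif was counted on its own, whether or not it shared letters with the other. RefSeq lists 3 starts for Bcl2l1, and the 2 shown are those with transcripts of the tables beginning within 150 bases, 4 at the first and 2 at the second. Their stretches are chr2:152830718-152830967 and chr2:152831729-152831978, both on the minus strand. The start not shown has 0 such transcripts. The Mcl1 stretch is chr3:95658471-95658720 (plus strand) and the Bax stretch is chr7:45466899-45467148 (minus strand).
Bcl2l1 first start: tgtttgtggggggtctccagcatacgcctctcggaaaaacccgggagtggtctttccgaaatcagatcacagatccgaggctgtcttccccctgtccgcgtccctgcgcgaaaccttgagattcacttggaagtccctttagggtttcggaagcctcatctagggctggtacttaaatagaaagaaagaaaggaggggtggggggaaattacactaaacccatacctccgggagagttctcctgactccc
Bcl2l1 second start: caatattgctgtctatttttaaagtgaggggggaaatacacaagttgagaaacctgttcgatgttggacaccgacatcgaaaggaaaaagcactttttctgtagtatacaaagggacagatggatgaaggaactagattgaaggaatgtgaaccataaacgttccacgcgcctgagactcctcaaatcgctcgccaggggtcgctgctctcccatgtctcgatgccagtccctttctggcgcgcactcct
Mcl1: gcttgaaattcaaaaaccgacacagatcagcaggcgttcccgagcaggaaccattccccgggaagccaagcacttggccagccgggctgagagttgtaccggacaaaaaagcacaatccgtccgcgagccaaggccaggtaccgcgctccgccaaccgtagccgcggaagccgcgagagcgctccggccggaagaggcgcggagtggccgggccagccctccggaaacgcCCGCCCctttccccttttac
Bax: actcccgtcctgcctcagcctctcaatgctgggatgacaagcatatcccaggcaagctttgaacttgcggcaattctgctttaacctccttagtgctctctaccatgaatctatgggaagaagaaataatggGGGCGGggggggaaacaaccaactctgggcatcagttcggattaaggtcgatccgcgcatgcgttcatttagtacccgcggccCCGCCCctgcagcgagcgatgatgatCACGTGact
Neither Bcl2l1 stretch shown holds either motif, the Mcl1 stretch holds 1 GC box and no E-box, and the Bax stretch holds 2 GC boxes and 1 E-box. Over all 32851 upstream stretches of this length in the RefSeq table, 32.7% hold a GC box and 6.02% an E-box. Of the 15 stretches listed for 9 of the 10 genes (that of Pmaip1 is not reported here), 10 hold a GC box and 2 an E-box. These matches are of letters and say nothing of what binds there.

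Pmaip1 encodes Noxa, a BH3-only protein that binds Mcl1 with preference. It was at 62.6 CPM in the Cx43-deleted library, against 3.82 CPM in WT C57BL6-BALB/c and 7.83 CPM in WT C57BL6. The reads behind these levels were 3358 in Cx43-deleted (95% Poisson interval 3245 to 3474), 81 in WT C57BL6-BALB/c (64.3 to 100.7) and 199 in WT C57BL6 (172 to 229). The deleted library stood far above both others, and the WT libraries also stood apart from each other.

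On these reads Pmaip1 was 16.4-fold higher in Cx43-deleted than in WT C57BL6-BALB/c (13.1 to 20.7). It was 7.99-fold above WT C57BL6 (6.93 to 9.27). On the log2 scale of CPM with 0.5 added, the ratios were 3.87 and 2.92. These values chose the gene for description and are given without a test. Only 11 of 16604 genes had a larger absolute log2 ratio against WT C57BL6-BALB/c, and 5 genes stood further above both WT libraries than Pmaip1, which was at rank 6. WT C57BL6-BALB/c had 2.05-fold fewer Pmaip1 reads than WT C57BL6 (1.58 to 2.69), a log2 ratio of −0.95 after the 0.5 was added.

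The Pmaip1 reads were spread along its 1 listed transcript of 2717 bases (GRCm38 chromosome 18, plus strand, gene from 66458533 to 66465565). In Cx43-deleted 77 bases had no read, against 716 in WT C57BL6-BALB/c vessels and 361 in WT C57BL6 vessels. The share of bases with a read was thus 97.2% in Cx43-deleted, 73.6% in WT C57BL6-BALB/c vessels and 86.7% in WT C57BL6 vessels, a share that grows with the number of reads. None of its exon bases overlap another annotated gene. The nearest genes kept on the chromosome lay 156 kb before it (Ccbe1) and 392 kb after it (Mc4r). Over the 5 nearest kept genes on each side, 0 of 10 differed by 2-fold in any comparison, which is near the share over all genes. Of all genes, 1.05% were 2-fold or more higher and 1.01% lower than in WT C57BL6-BALB/c. Against WT C57BL6 these shares were 1.54% and 2.91%, and between the WT libraries 3.26% were past 2-fold either way. The log2 ratios of the 10 neighbours ran from −0.53 to 0.90 for Cx43-deleted over WT C57BL6-BALB/c and from −0.41 to 0.67 for Cx43-deleted over WT C57BL6.

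**Figure D1:**
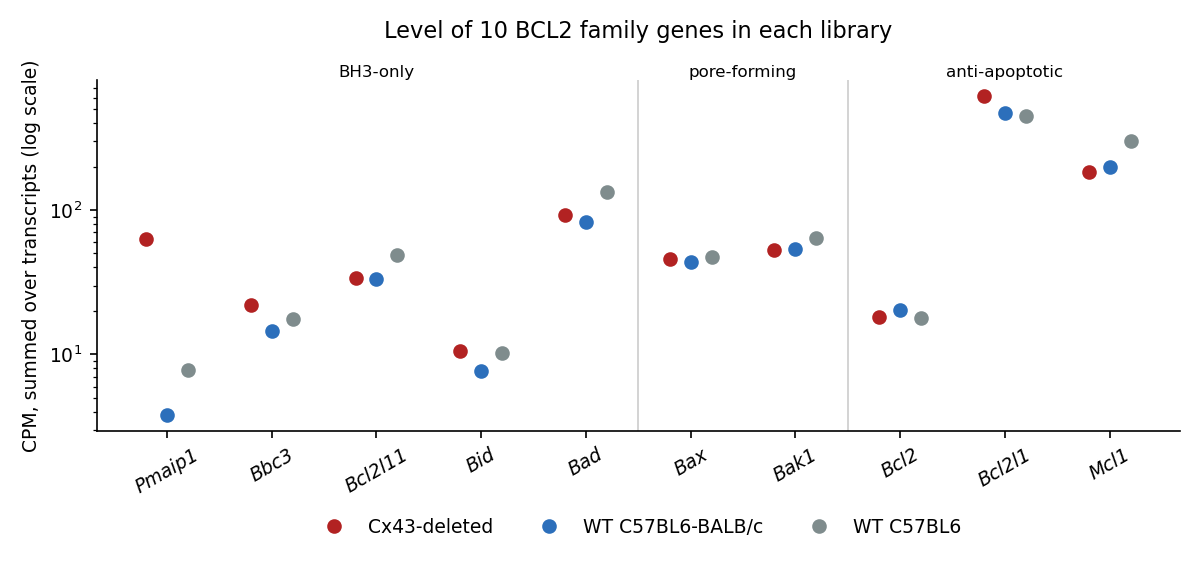
Level of each BCL2 family gene (CPM summed over transcripts, log axis) in each library (red Cx43-deleted, blue WT C57BL6-BALB/c, grey WT C57BL6), 1 point per library, with genes grouped by role. Heights cannot be compared between genes, because a read is counted on each transcript it overlaps. Pmaip1 is at 62.6 CPM in Cx43-deleted, against 3.82 CPM in WT C57BL6-BALB/c and 7.83 CPM in WT C57BL6, while the points of the other 9 genes lie close together.

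The other BH3-only genes stood much closer to the WT libraries. Bbc3 encodes Puma, a p53-induced protein that binds all the anti-apoptotic members. It was at 21.9 CPM in Cx43-deleted, against 14.5 CPM in WT C57BL6-BALB/c and 17.7 CPM in WT C57BL6. The fold was 1.48 over WT C57BL6-BALB/c (1.26 to 1.75) and 1.28 over WT C57BL6 (1.11 to 1.49), and the 3 Bbc3 transcripts were all higher in Cx43-deleted than in either WT library. These transcripts can share reads, so they are not independent. Over WT C57BL6 the intervals of Bbc3-202 (0.845 to 2.27) and Bbc3-203 (0.969 to 1.39) included 1. Between the WT libraries the Bbc3 interval included 1 (0.713 to 1.05 for WT C57BL6-BALB/c over WT C57BL6).

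Bid, which caspase-8 cleaves to carry the death receptor signal to mitochondria, was at 10.6 CPM in Cx43-deleted, against 7.73 CPM in WT C57BL6-BALB/c and 10.3 CPM in WT C57BL6. It was 1.35-fold above WT C57BL6-BALB/c (1.12 to 1.63), and 1.01-fold relative to WT C57BL6 with an interval of 0.861 to 1.18. So the library that stood apart for Bid was WT C57BL6-BALB/c, the lowest.

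Bcl2l11, which encodes Bim, and Bad, which is held inactive by phosphorylation under growth factor signals, were both highest in WT C57BL6. Bcl2l11 was at 33.7 CPM in Cx43-deleted, against 33.2 CPM in WT C57BL6-BALB/c and 48.5 CPM in WT C57BL6. Its scaled reads in Cx43-deleted were 0.967 of those in WT C57BL6-BALB/c (0.850 to 1.10). They were 1.57-fold below WT C57BL6 (1.41 to 1.74). The 8 listed transcripts of Bcl2l11 did not move as one: 4 were higher in Cx43-deleted than in WT C57BL6-BALB/c and 1 was higher than in WT C57BL6, with transcript ratios of 0.791 to 1.68 and 0.639 to 1.11. Several of these transcripts had few reads and they share reads with one another.

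Bad was at 92.9 CPM in Cx43-deleted, against 82.7 CPM in WT C57BL6-BALB/c and 133.9 CPM in WT C57BL6. It was 1.16-fold above WT C57BL6-BALB/c (1.05 to 1.29) and 1.40-fold below WT C57BL6 (1.29 to 1.52). All 5 Bad transcripts had this order, but they can share reads. Over WT C57BL6-BALB/c the intervals of Bad-203 (0.968 to 1.25) and Bad-204 (0.862 to 1.19) included 1. In addition, 25.7% of the exon bases of Bad lie over Gpr137, and reads of the 2 genes there cannot be separated without strand.

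The pore-forming genes were nearly level across the libraries. Bax was at 45.9 CPM in Cx43-deleted, against 43.5 CPM in WT C57BL6-BALB/c and 47.0 CPM in WT C57BL6, the narrowest range of the 10 genes (1.08-fold from lowest to highest). Its intervals included 1 in each comparison: 0.976 to 1.14 over WT C57BL6-BALB/c and 0.909 to 1.05 over WT C57BL6. Bak1 was at 52.9 CPM in Cx43-deleted, against 54.1 CPM in WT C57BL6-BALB/c and 64.3 CPM in WT C57BL6. It was 1.21-fold below WT C57BL6 (1.10 to 1.32), and its interval against WT C57BL6-BALB/c was 0.891 to 1.09. Gm45808 covers 22.1% of the Bax exon bases and Ggnbp1 covers 25.5% of those of Bak1, and without strand the reads there cannot be assigned.

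Among the anti-apoptotic genes, Bcl2l1 and Mcl1 stood on opposite sides of the WT libraries. Bcl2l1, which encodes Bcl-xL, was at 617 CPM in Cx43-deleted, against 467 CPM in WT C57BL6-BALB/c and 449.7 CPM in WT C57BL6. It had 9866 reads in Cx43-deleted, 2908 in WT C57BL6-BALB/c vessels and 3559 in WT C57BL6 vessels, and was 1.34-fold above WT C57BL6-BALB/c (1.29 to 1.40) and 1.31-fold above WT C57BL6 (1.26 to 1.36). The WT libraries did not differ beyond counting error on this transcript (0.932 to 1.03).

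All 8 listed Bcl2l1 transcripts were higher in Cx43-deleted than in either WT library, by 1.22- to 1.35-fold over WT C57BL6-BALB/c and by 1.31- to 1.49-fold over WT C57BL6. Transcripts from both start sites printed above were covered. The most abundant one, which starts at the first site, had a read on each of its 2568 bases in every library. A transcript of 2417 bases that starts at the second site had 0 bases without a read in Cx43-deleted, against 37 in WT C57BL6-BALB/c vessels and 34 in WT C57BL6 vessels. A read is counted on every transcript it overlaps, so how the reads divide between the starts is not known from these tables.

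Mcl1, a guardian whose protein turns over fast and which Noxa targets, was at 183 CPM in Cx43-deleted, against 197 CPM in WT C57BL6-BALB/c and 301 CPM in WT C57BL6. It was 1.08-fold below WT C57BL6-BALB/c (1.04 to 1.12) and 1.64-fold below WT C57BL6 (1.59 to 1.69). WT C57BL6-BALB/c was itself 1.52-fold below WT C57BL6 (1.47 to 1.58), so the library apart from the others was WT C57BL6. Bcl2, the founding member of the family, was nearly level, at 18.0 CPM in Cx43-deleted, against 20.3 CPM in WT C57BL6-BALB/c and 17.8 CPM in WT C57BL6. D630008O14Rik covers 7.76% of its exon bases. Its interval over WT C57BL6 included 1 (0.908 to 1.14), and over WT C57BL6-BALB/c it ran from 0.792 to 0.997.

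**Figure D2:**
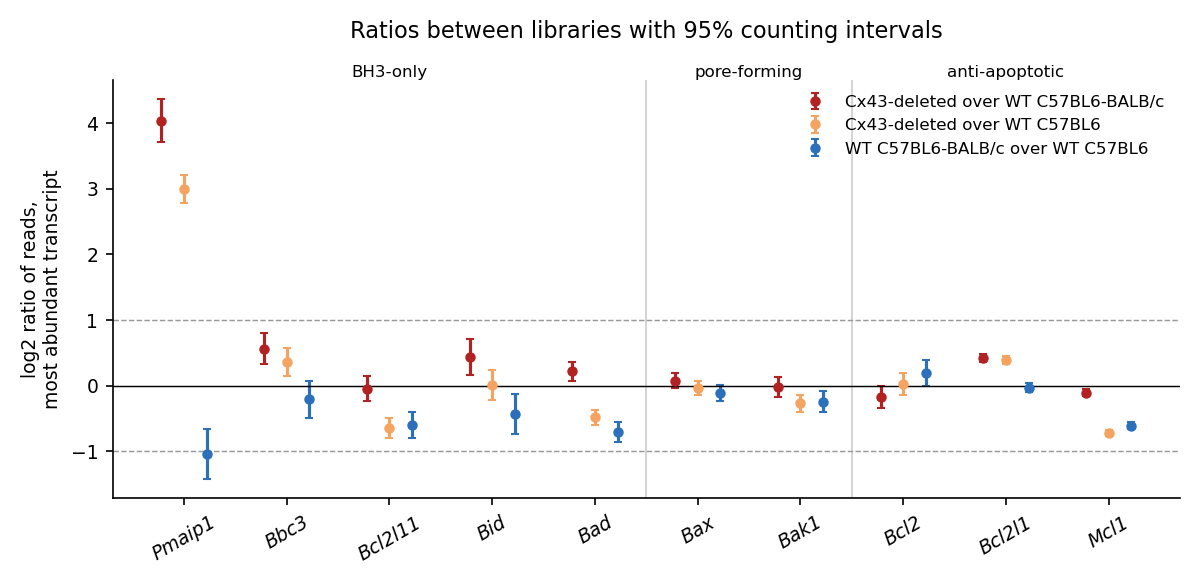
Log2 ratio of reads on the most abundant transcript of each gene for the 3 pairs of libraries, with 95% exact binomial intervals that cover counting error only; dashed lines mark 2-fold. Pmaip1 lies far above the upper dashed line in both ratios of Cx43-deleted to WT, and every other gene lies within 2-fold in all 3 pairs.

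Across the family, 1 of 10 genes was 2-fold or more higher in Cx43-deleted than in WT C57BL6-BALB/c, where 1.05% of all genes were. By any size, 7 of 10 were higher there (50.5% of all genes) and 5 of 10 were higher than in WT C57BL6 (47.1%). Past 2-fold, the count was also 1 of 10 against WT C57BL6 (1.54% of all genes), and in both cases the gene was Pmaip1. It was picked because its high level was already known, so these counts of 1 were set by that choice. The counts of 7 and 5 include it too. In the other direction 0 of 10 were 2-fold or more lower, where 1.01% of all genes were lower than in WT C57BL6-BALB/c and 2.91% lower than in WT C57BL6. Between WT C57BL6-BALB/c and WT C57BL6, 0 of 10 were past 2-fold either way once 0.5 CPM was added, against 3.26% of all genes. Pmaip1 lies at that limit: its reads alone differed by 2.05-fold, and with 0.1 CPM added the count was 1 of 10.

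Without Pmaip1, the log2 ratios of the remaining 9 genes ran from −0.17 to 0.58 over WT C57BL6-BALB/c, with a median of 0.07, where all genes had a median of 0.0030. Over WT C57BL6 they ran from −0.72 to 0.46 with a median of −0.04, against −0.03 for all genes. Between the WT libraries they ran from −0.69 to 0.19 with a median of −0.28, against −0.03 for all genes. Of the 10 genes, 8 were lower in WT C57BL6-BALB/c than in WT C57BL6, as were 53.3% of all genes.

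The Cx43-deleted library lay above both WT libraries for 4 of 10 genes (Pmaip1, Bbc3, Bcl2l1 and Bid, of which Bid lay below WT C57BL6 when scaled by library total alone), below both for 2 (Mcl1 and Bak1) and between them for 4. Over all genes 33.2% lay above both and 35.6% below both. By 2-fold or more, 1 of 10 lay above both (0.428% of all genes) and 0 of 10 below both (0.379%). The 1 above both is Pmaip1, picked because its high level was known, so that count was set in advance. Both ratios share the Cx43-deleted library, so these positions are not independent of each other.

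Levels per length allow the genes to be set beside each other within a library. They are reads relative to the length of the transcript and the scaled library total (RPKM). Pmaip1 was at 23.0 RPKM in Cx43-deleted, against 1.41 in WT C57BL6-BALB/c vessels and 2.88 in WT C57BL6 vessels. Among the 10 genes that is rank 4 in Cx43-deleted, rank 10 in WT C57BL6-BALB/c and rank 9 in WT C57BL6. Bcl2l1 was at 71.6 RPKM in Cx43-deleted, against 53.4 in WT C57BL6-BALB/c vessels and 54.6 in WT C57BL6 vessels, and so was at rank 1 in Cx43-deleted and rank 3 in both WT libraries. Mcl1 was at 54.7 RPKM in Cx43-deleted, against 58.96 in WT C57BL6-BALB/c vessels and 89.9 in WT C57BL6 vessels, at rank 3 in Cx43-deleted and rank 1 in both WT libraries.

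Bax stayed at rank 2 throughout, with 58.9 RPKM in Cx43-deleted, 55.9 in WT C57BL6-BALB/c vessels and 60.4 in WT C57BL6 vessels. Bcl2 had the lowest level per length in Cx43-deleted (2.51 RPKM) and in WT C57BL6 (2.47 RPKM), and was at 2.83 RPKM in WT C57BL6-BALB/c. In the stacked plot of levels per length, Mcl1, Bcl2l1 and Bax make up most of each bar, and the Pmaip1 segment is visible mainly in the Cx43-deleted bar.

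Mcl1 had 2.37 times the level per length of Pmaip1 in Cx43-deleted, against 41.9 times in WT C57BL6-BALB/c and 31.2 times in WT C57BL6. The BH3-only genes together were at 56.999 RPKM in Cx43-deleted, against 29.3 in WT C57BL6-BALB/c vessels and 44.8 in WT C57BL6 vessels, and Pmaip1 supplied 40.4% of that sum in Cx43-deleted, 4.79% of it in WT C57BL6-BALB/c and 6.44% of it in WT C57BL6. Relative to the summed anti-apoptotic genes, the BH3-only sum was 0.442 in Cx43-deleted, 0.255 in WT C57BL6-BALB/c vessels and 0.305 in WT C57BL6 vessels. Leaving out Pmaip1 gave 0.264 in Cx43-deleted, 0.242 in WT C57BL6-BALB/c vessels and 0.285 in WT C57BL6 vessels, so without it the deleted library lay between the WT libraries. The pore-forming genes were at 0.539 of the anti-apoptotic sum in Cx43-deleted, 0.578 in WT C57BL6-BALB/c vessels and 0.498 in WT C57BL6 vessels. These are transcript levels and not protein. The sums hold only the 5 BH3-only and 3 anti-apoptotic genes followed here, and are not the balance of the whole family. The anti-apoptotic Bcl2l2 is not in them, with 5052 reads in Cx43-deleted, 1861 in WT C57BL6-BALB/c vessels and 2438 in WT C57BL6 vessels. Neither is the BH3-only gene Hrk.

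**Figure D3:**
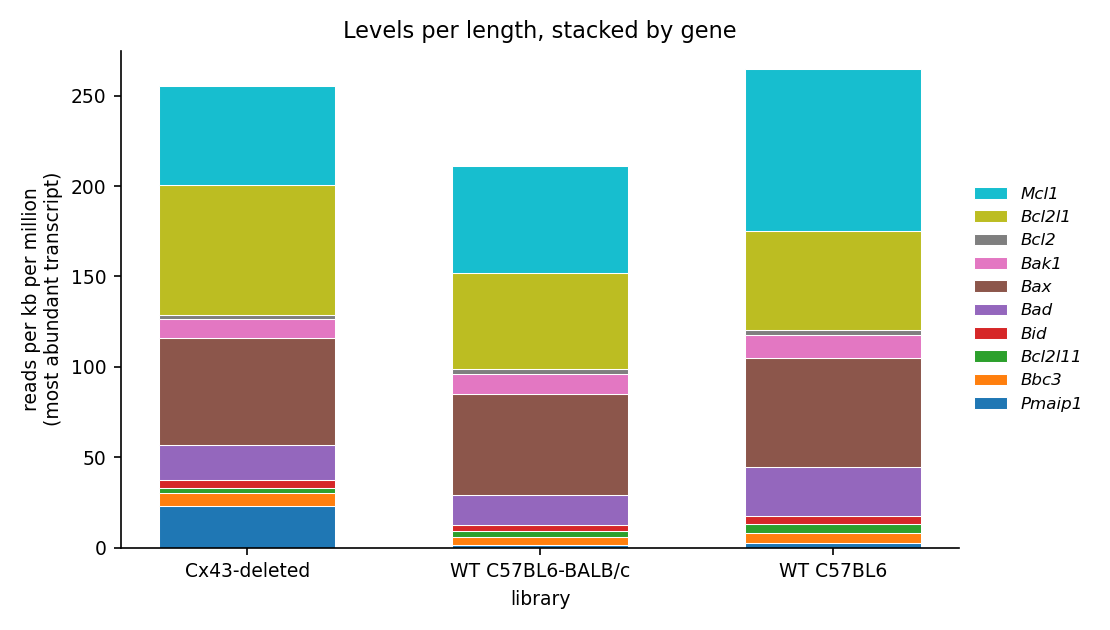
Levels per length (RPKM of the most abundant transcript) of the 10 genes, stacked in 1 bar per library. The Pmaip1 segment at the base is 23.0 RPKM in Cx43-deleted, against 1.41 in WT C57BL6-BALB/c vessels and 2.88 in WT C57BL6 vessels, and the Mcl1 segment at the top is tallest in WT C57BL6.

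The genes with a pattern most like Pmaip1 were sought among those at 5 CPM or more in Cx43-deleted, by the distance between their pairs of log2 ratios to the WT libraries, so likeness is over 3 libraries only. The nearest 5 were Ighg3, Prm1, Serpina3i, Serpina3n and Jchain, at distances of 0.92, 1.26, 1.44, 1.54 and 1.58. Ighg3, an IgG heavy chain gene, had 416 reads in Cx43-deleted, against 2 in WT C57BL6-BALB/c vessels and 2 in WT C57BL6 vessels. Prm1, a protamine of sperm, had 313 reads in Cx43-deleted, against 8 in WT C57BL6-BALB/c vessels and 0 in WT C57BL6 vessels. Serpina3n, a protease inhibitor of reactive astrocytes, was at 84.2 CPM in Cx43-deleted, against 14.9 CPM in WT C57BL6-BALB/c and 16.8 CPM in WT C57BL6. The Serpina3 and immunoglobulin genes have near-identical copies, so their counts are uncertain.

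**Figure D4:**
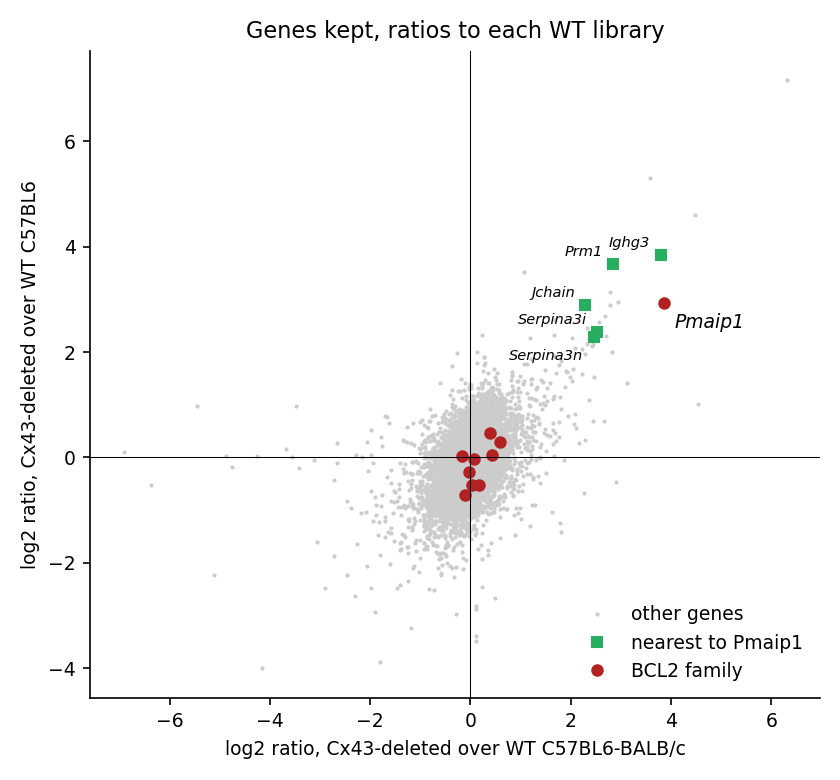
Each of the 16604 genes kept, by its log2 ratio of Cx43-deleted to WT C57BL6-BALB/c (horizontal) and to WT C57BL6 (vertical). Both axes share the Cx43-deleted library. Of the BCL2 family genes (red), Pmaip1 lies at 3.87 and 2.92 and the other 9 lie in the central cloud, and the 5 genes nearest to Pmaip1 are in green.

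Since Jchain and Ighg3 mark antibody-producing cells, the whole list of B and plasma cell markers was set beside Pmaip1. Of 7 markers found, 4 were kept. All 7 together summed to 26.6 CPM in Cx43-deleted, against 13.3 CPM in WT C57BL6-BALB/c and 14.4 CPM in WT C57BL6. Jchain was at 16.9 CPM in Cx43-deleted, against 3.07 CPM in WT C57BL6-BALB/c and 1.85 CPM in WT C57BL6. Without Jchain the other 6 markers summed to 9.64 CPM in Cx43-deleted, against 10.3 CPM in WT C57BL6-BALB/c and 12.6 CPM in WT C57BL6, so the higher sum of the list is that of Jchain, the gene that led to it. Cd79a and Cd79b were under 1 CPM in every library but neither was at 0. Of the 4 kept, 3 were higher in Cx43-deleted than in WT C57BL6-BALB/c (50.5% of all genes) and 2 higher than in WT C57BL6 (47.1%). Jchain was 1 of 2 above both WT libraries (33.2% of all genes). Sdc1, which is in the sum without Jchain, was the 1 below both (35.6%). It was at 4.19 CPM in Cx43-deleted, against 6.55 CPM in WT C57BL6-BALB/c and 6.30 CPM in WT C57BL6. Markers of T and NK cells summed to 10.7 CPM in Cx43-deleted, against 7.92 CPM in WT C57BL6-BALB/c and 14.1 CPM in WT C57BL6. Only 1 of these 6 markers, Cd4, passed the filter. Cd3e, Cd3d, Cd8a, Nkg7 and Gzmb were under 1 CPM in every library, so the sum says little of these cells. Markers of neutrophils summed to 14.7 CPM in Cx43-deleted, against 26.3 CPM in WT C57BL6-BALB/c and 32.6 CPM in WT C57BL6, where Ly6g was at 0. All 5 that passed the filter lay below both WT libraries (35.6% of all genes). The 6 smooth muscle markers summed to 1742 CPM in Cx43-deleted, against 2877 CPM in WT C57BL6-BALB/c and 2020.3 CPM in WT C57BL6, and 5 of them lay below both (35.6% of all genes). The 6 pericyte markers summed to 2718 CPM in Cx43-deleted, against 2668 CPM in WT C57BL6-BALB/c and 4487 CPM in WT C57BL6. The part of these cell types in the family's values was not tested.

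The rest of the apoptosis pathway was read from 8 lists. In the list of other genes with BCL2 homology, 17 of 18 were found and 12 were kept. None of the 12 differed by 2-fold in Cx43-deleted from either WT library, except that Bok, at a log2 ratio of −0.96 to WT C57BL6, was at −1.03 when scaled by library total alone. Over all genes, 1.05% were 2-fold or more higher and 1.01% lower than in WT C57BL6-BALB/c. Against WT C57BL6 these shares were 1.54% and 2.91%. The list median was −0.05 over WT C57BL6-BALB/c and −0.25 over WT C57BL6. Hrk, a BH3-only gene of neurons, was at 23.4 CPM in Cx43-deleted, against 19.4 CPM in WT C57BL6-BALB/c and 18.5 CPM in WT C57BL6. Bnip3, a mitochondrial protein of mitophagy, was at 7.31 CPM in Cx43-deleted, against 5.38 CPM in WT C57BL6-BALB/c and 6.10 CPM in WT C57BL6. Bcl2l13 and Bnip2 lay slightly below both WT libraries, with log2 ratios to the nearer one of −0.14 and −0.15. The Bcl2a1 genes, whose A1 proteins also bind Noxa, had 0 to 2 reads in each library.

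Downstream of the pore, 9 of 10 genes found for the apoptosome and mitochondrial release were kept. Of the 9, 7 lay above both WT libraries (33.2% of all genes), none by 2-fold (0.428%). Diablo, which encodes Smac, an antagonist of the IAP proteins, was at 392 CPM in Cx43-deleted, against 283 CPM in WT C57BL6-BALB/c and 315 CPM in WT C57BL6. Aifm1, a flavoprotein that can leave mitochondria in cell death, was at 174 CPM in Cx43-deleted, against 136 CPM in WT C57BL6-BALB/c and 130.4 CPM in WT C57BL6. Relative to the nearer WT library, the log2 ratio was 0.22 for Htra2 and 0.15 for Ppif. Apaf1, the scaffold of the apoptosome, was at 21.3 CPM in Cx43-deleted, against 21.2 CPM in WT C57BL6-BALB/c and 21.1 CPM in WT C57BL6. Cytochrome c (Cycs) was under the filter, with 28 reads in Cx43-deleted, against 7 in WT C57BL6-BALB/c vessels and 4 in WT C57BL6 vessels, and it has processed copies that make its count uncertain.

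The caspases execute the program. Of 11 listed with their regulator Cflar, 10 were kept. Of these, 7 were lower than in either WT library (35.6% of all genes) and 2 were higher (33.2%). None differed by 2-fold from WT C57BL6-BALB/c (1.05% of all genes were higher and 1.01% lower). Against WT C57BL6 Casp4, an inflammatory caspase, was 2-fold or more lower (2.91% of all genes). Casp12, at a log2 ratio of −0.96 to WT C57BL6, passed 2-fold when scaled by library total alone (−1.03) or by reads of its most abundant transcript (−1.02). Casp4 was at 1.96 CPM in Cx43-deleted, against 2.45 CPM in WT C57BL6-BALB/c and 7.16 CPM in WT C57BL6. Casp8, the initiator that cleaves Bid, was at 11.8 CPM in Cx43-deleted, against 14.2 CPM in WT C57BL6-BALB/c and 22.8 CPM in WT C57BL6. To the nearer WT library, Casp12 had a log2 ratio of −0.46 and Casp1 one of 0.35.

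Of 8 genes kept in the IAP list, 4 were higher than in either WT library (33.2% of all genes) and 1 was lower (35.6%). The list median was 0.55 over WT C57BL6-BALB/c and 0.01 over WT C57BL6. The WT libraries also differed here, with a median of −0.37 for WT C57BL6-BALB/c over WT C57BL6. Of the 8 genes, 3 were 2-fold or more lower in WT C57BL6-BALB/c (3.26% of all genes were past 2-fold either way). In each comparison 1 gene was 2-fold or more higher, Birc7 against WT C57BL6-BALB/c (1.05% of all genes) and Birc5 against WT C57BL6 (1.54%). Naip2 was 2-fold or more lower than in WT C57BL6 (2.91% of all genes). Both higher calls depend on the settings. The log2 ratio of Birc5 to WT C57BL6, 1.02, was 0.91 with 1 CPM added, 0.96 when scaled by library total alone and 0.92 on its most abundant transcript. Birc7 lost its call with 1 CPM added (0.81), on its most abundant transcript and with a filter of 5 CPM. With 0.1 CPM added, 3 IAP genes were called against WT C57BL6-BALB/c (Birc7, Naip5 and Naip6). Birc5, survivin, also a mitosis gene, was at 5.54 CPM in Cx43-deleted, against 3.30 CPM in WT C57BL6-BALB/c and 2.48 CPM in WT C57BL6. Birc7 and Naip6 were at 1.08 and 1.64 CPM in Cx43-deleted, too low for a firm statement. Xiap, which inhibits the executioner caspases, was at 599 CPM in Cx43-deleted, against 661 CPM in WT C57BL6-BALB/c and 609 CPM in WT C57BL6.

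Death receptors and their adaptors had a median of −0.01 over WT C57BL6-BALB/c and −0.45 over WT C57BL6, with 7 of 15 lower than in either WT library (35.6% of all genes) and 2 higher (33.2%). Their median for WT C57BL6-BALB/c over WT C57BL6 was −0.49. None was past 2-fold against WT C57BL6-BALB/c (1.05% of all genes were higher and 1.01% lower). Against WT C57BL6, 3 were 2-fold or more lower, Tnfrsf1a, Tnfrsf10b and Tnfsf10 (2.91% of all genes). Of these, Tnfrsf1a was at −1.01 and missed 2-fold with DESeq2 size factors (−0.99), Tnfrsf10b did not reach a filter of 5 CPM, and Tnfrsf1b joined them when scaled by library total alone (−1.04) or on its most abundant transcript (−1.001). Tnfsf10, the ligand Trail, was at 30.8 CPM in Cx43-deleted, against 48.9 CPM in WT C57BL6-BALB/c and 99.7 CPM in WT C57BL6. Tnfrsf10b, the mouse Trail receptor, was at 1.04 CPM in Cx43-deleted, against 1.70 CPM in WT C57BL6-BALB/c and 3.78 CPM in WT C57BL6. Tnfrsf25, a death-domain receptor, stood above both, at 160 CPM in Cx43-deleted, against 117 CPM in WT C57BL6-BALB/c and 97.0 CPM in WT C57BL6.

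Pmaip1, Bbc3 and Bax are known targets of p53, and the p53 list of 25 genes, which contains them, was spread to both sides. In Cx43-deleted 7 of these genes were higher than in either WT library (33.2% of all genes) and 10 were lower (35.6%), and the medians were 0.07 over WT C57BL6-BALB/c and −0.11 over WT C57BL6. Against WT C57BL6-BALB/c, 2 genes were 2-fold or more higher (Pmaip1 and Ddit4; 1.05% of all genes) and 1 was lower (Btg2; 1.01%). Against WT C57BL6, 1 was higher (Pmaip1; 1.54% of all genes) and 2 were lower (Btg2 and Perp; 2.91%), with Phlda3 joining them at −1.02 when scaled by library total alone. The high level of Pmaip1 was known beforehand, so its part in these counts was set in advance. Btg2, also an immediate early gene, was at 50.5 CPM in Cx43-deleted, against 121 CPM in WT C57BL6-BALB/c and 258 CPM in WT C57BL6. Trp53 itself was at 102 CPM in Cx43-deleted, against 100.2 CPM in WT C57BL6-BALB/c and 88.6 CPM in WT C57BL6. Trp53inp1 stood above both, at 205 CPM in Cx43-deleted, against 109.8 CPM in WT C57BL6-BALB/c and 141 CPM in WT C57BL6. Perp stood below both, at 23.7 CPM in Cx43-deleted, against 39.6 CPM in WT C57BL6-BALB/c and 55.4 CPM in WT C57BL6.

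For 3 further p53 targets, chosen after their values were seen, the levels are given as a description. Cdkn1a, which encodes the cell cycle inhibitor p21, was at 157 CPM in Cx43-deleted, against 79.6 CPM in WT C57BL6-BALB/c and 229 CPM in WT C57BL6. Mdm2, the ligase that limits p53, was at 523 CPM in Cx43-deleted, against 447 CPM in WT C57BL6-BALB/c and 453 CPM in WT C57BL6. Ccng1 was at 67.4 CPM in Cx43-deleted, against 68.8 CPM in WT C57BL6-BALB/c and 68.3 CPM in WT C57BL6.

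In the integrated stress response, whose factor Atf4 can induce Pmaip1, 14 of 19 genes were lower than in either WT library (35.6% of all genes) and 2 were higher (33.2%). The medians were −0.19 over WT C57BL6-BALB/c and −0.46 over WT C57BL6, and −0.29 for WT C57BL6-BALB/c over WT C57BL6. By 2-fold or more, 1 gene was higher (Ddit4; 1.05% of all genes) and 1 lower (Atf3; 1.01%) than in WT C57BL6-BALB/c, and 3 were lower than in WT C57BL6 (Atf3, Ppp1r15a and Cebpb; 2.91%). The log2 ratio of Atf3 to WT C57BL6-BALB/c, −1.02, was −0.97 with 1 CPM added and −0.98 on its most abundant transcript, which ends that call. Atf3, a stress-induced transcription factor, was at 5.89 CPM in Cx43-deleted, against 12.5 CPM in WT C57BL6-BALB/c and 28.2 CPM in WT C57BL6. Hspa5, the main chaperone of the endoplasmic reticulum, was at 969 CPM in Cx43-deleted, against 1356 CPM in WT C57BL6-BALB/c and 1364 CPM in WT C57BL6. Relative to the nearer WT library, the log2 ratio was −0.44 for Ppp1r15a and −0.37 for Cebpb. Ddit4, an inhibitor of mTORC1 signalling that is also in the p53 list and was named after its values were seen, was at 171 CPM in Cx43-deleted, against 68.4 CPM in WT C57BL6-BALB/c and 177 CPM in WT C57BL6.

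Genes that set the turnover of Mcl1 and the trophic kinases showed 0 of 15 past 2-fold in either comparison with the WT libraries. Of all genes, 1.05% were higher by that much and 1.01% lower against WT C57BL6-BALB/c, and 1.54% and 2.91% against WT C57BL6. Huwe1, a ubiquitin ligase for Mcl1, was at 1646 CPM in Cx43-deleted, against 1532 CPM in WT C57BL6-BALB/c and 1343 CPM in WT C57BL6. Btrc, a substrate adaptor of another ubiquitin ligase, was at 59.4 CPM in Cx43-deleted, against 100.4 CPM in WT C57BL6-BALB/c and 89.98 CPM in WT C57BL6. Gsk3b, a kinase that marks Mcl1 for degradation, lay below both WT libraries, with a log2 ratio of −0.18 to the nearer one.

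**Figure D5:**
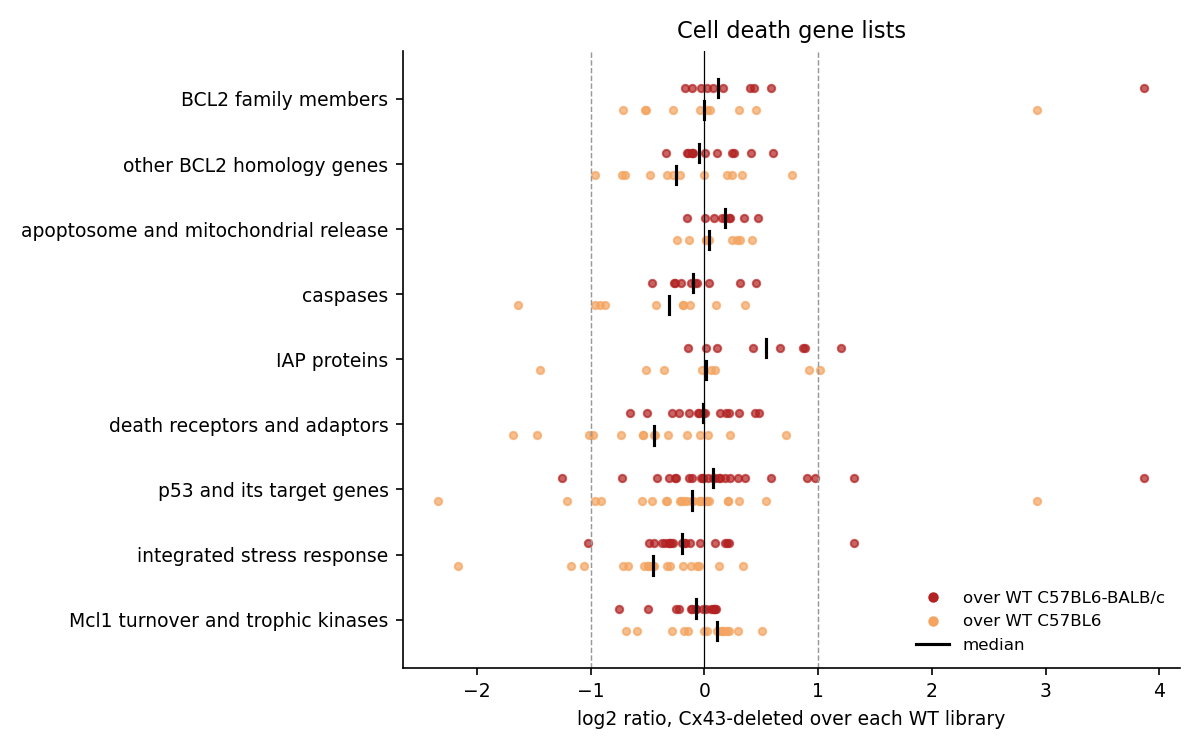
Log2 ratio of Cx43-deleted to each WT library for every gene kept in 9 lists of the apoptosis pathway, with the list median as a black bar and 2-fold as dashed lines. Pmaip1, which is in both the family and the p53 list, is the point at 3.87 and 2.92, and most other points lie within 2-fold.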

How the data were processed

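For each library the authors deposited a table of 82813 Ensembl transcripts with a read count, not normalised, and that count as a fraction of 1 library total, per the file headers. The submitters' processing notes list CASAVA 1.8.2, Bowtie and the mm10 build, and no source used here names the program that counted or its annotation. A read was counted on each transcript it overlapped (the counts sum to 2.45 to 2.55 times the totals), and the kit named in the labels' protocols does not keep strand. The transcript length and the bases without a read are other values in the authors' tables. Coordinates in the tables run past the end of an mm10 chromosome, so none was printed. Names and positions come from GENCODE M21 on GRCm38, matched to 69379 transcripts (83.8%), of which 217 on another chromosome were left out.

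The summed count of a gene was scaled by library total and by TMM (edgeR 4.0.16 in R 4.3.3), whose factors were 0.976 in Cx43-deleted, 1.02 in WT C57BL6 and 1.00 in the WT library of the mixed background. Before taking log2 ratios 0.5 CPM was added, so that ratios of genes with few reads are too small. The filter kept genes that reached 1 CPM in any library. A level of 1 CPM is 53.6 counts in Cx43-deleted, 21.2 counts in WT C57BL6-BALB/c and 25.4 counts in WT C57BL6. Ratios of reads have exact binomial 95% intervals (scipy 1.17.1, Python 3.11.15). Groups of 1 library allow no test, so a call is a 2-fold difference. The steps were run on simulated counts with counting error only. That run had no spread between animals, so it does not show how reliable a call between single libraries is.

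All 10 members were to be named, and from each list every gene 2-fold or more beyond both WT libraries on the same side, filled up to 4 with the genes furthest from the nearer one; some list genes are not reported here. Predicted genes, pseudogenes and small RNA genes were left out of the genes nearest to Pmaip1. The members and lists were chosen with earlier results of these data known. Alternatives were pseudocounts of 0.1 and 1, scaling by library total, DESeq2 1.42.0 size factors, reads of the most abundant transcript, a filter of 5 CPM and no filter.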

Additional observations from a re-analysis of the deposited data

How the results depend on the processing

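Pmaip1 stayed the member past 2-fold over each WT library under all 7 alternatives, with log2 ratios of 3.72 to 4.0 over WT C57BL6-BALB/c and 2.85 to 2.98 over WT C57BL6. In the comparison of the WT libraries, the count of members past 2-fold was 1 with a pseudocount of 0.1 (Pmaip1, at −1.02) and 0 otherwise. Of the 210 member ratios computed under the alternatives, 206 stayed within their counting interval and 5 took another sign, each in a ratio that was 0.06 or less in size (Bcl2l11, Bcl2, Bid and Bcl2l1). Scaling by library total alone moved the median of all genes to −0.10 for Cx43-deleted over WT C57BL6. No paired analysis was possible because each group has 1 library. Depth limits Pmaip1 most in WT C57BL6-BALB/c, where it rests on 81 reads. Without replicates, the spread between animals is unknown.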
